A study of Homo sapiens with 6 samples.

Results

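The genes described here are 9 direct targets of the transcription factor p53: MDM2, CDKN1A, GDF15, FAS, TNFRSF10B, ZMAT3, RRM2B, FDXR and SESN1. They were chosen by symbol as established p53 targets, with earlier results of these data known, so their counts beside all genes are descriptive. All 9 are among the 11658 genes of the deposited gene table. RNA was sequenced from cells labelled as the established gastric cancer line MKN45, of human origin, grown in DMEM with fetal bovine serum and transfected with a short hairpin RNA (shRNA). In 3 libraries the shRNA was directed at the transcript tcons_00001221, and these are called the targeting libraries. In the other 3 it was the control shRNA that the labels call shRNA-NC, and these are called the control libraries. The single comparison sets the targeting against the control libraries. Values are FPKM, a read level divided by transcript length and by library size, which allows levels of different genes to be set side by side. The targeted transcript is on 0 rows of the tables used here, so the size of its knockdown is not part of the comparison. Nothing in the labels tells whether the replicates were separate cultures. The p-values therefore cover only library-to-library spread, part or all of which may be technical. Marker genes met the epithelial label only in part. Mesenchymal markers, mostly COL5A1 and VIM, summed to 441 to 517 FPKM and epithelial ones to 149 to 172 over the 6 libraries.

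The p53 protein is held at a low level in unstressed cells by the ubiquitin ligase MDM2, itself a product of a p53 target gene. DNA damage and other stresses free p53 from MDM2, and p53 then switches on genes that stop the cell cycle, repair DNA, adjust metabolism or start cell death. Because p53 is controlled largely as a protein, the RNA of its targets is commonly read as a sign of its activity.

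Sequences at transcript starts are shown because p53 acts on these genes through DNA and because several members use more than 1 start. RefSeq windows on GRCh38.p14, from 250 bases before to 50 bases after a start, matched 7 of the 9 members with 16 windows. TNFRSF10B and RRM2B had no window among those searched. Each window was searched, on both strands, for the p53 consensus site of 20 bases with nothing between its 2 parts. With up to 3 mismatches allowed, 6 of the 16 windows held a match, where 5.2% of all 35116 windows held one. Their best matches lay at 5 places, in MDM2, FAS, GDF15, FDXR and SESN1. Only the best match of each window was kept, so further matches within a window were not counted. The best matches of MDM2 and FAS had 2 mismatches, and 0.649% of windows held a match with 2 or fewer. CDKN1A and ZMAT3 had no such match in their windows. The annotated start of transcript CDKN1A-203 lies 2254 bases from the CDKN1A start searched, so its surroundings were not covered. Sites outside the windows of any member were not sought. The windows of MDM2 (chr12:68808774-68809073, plus strand), SESN1 (chr6:109008939-109009238, minus strand) and GDF15 (chr19:18385908-18386207, plus strand) follow, 5′ to 3′, with the best match in capitals.
MDM2: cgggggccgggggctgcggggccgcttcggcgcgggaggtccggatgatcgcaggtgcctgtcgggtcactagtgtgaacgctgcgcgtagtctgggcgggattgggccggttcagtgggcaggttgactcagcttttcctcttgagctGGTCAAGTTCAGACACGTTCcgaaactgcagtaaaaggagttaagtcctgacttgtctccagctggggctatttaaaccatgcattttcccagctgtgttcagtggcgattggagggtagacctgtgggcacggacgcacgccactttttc
SESN1: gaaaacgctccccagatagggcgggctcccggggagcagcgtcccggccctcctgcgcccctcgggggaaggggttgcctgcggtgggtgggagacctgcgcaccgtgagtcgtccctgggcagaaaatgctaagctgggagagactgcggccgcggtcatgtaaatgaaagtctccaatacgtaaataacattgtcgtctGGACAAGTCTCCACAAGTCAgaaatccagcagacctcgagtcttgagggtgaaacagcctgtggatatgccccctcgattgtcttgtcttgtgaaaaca
GDF15: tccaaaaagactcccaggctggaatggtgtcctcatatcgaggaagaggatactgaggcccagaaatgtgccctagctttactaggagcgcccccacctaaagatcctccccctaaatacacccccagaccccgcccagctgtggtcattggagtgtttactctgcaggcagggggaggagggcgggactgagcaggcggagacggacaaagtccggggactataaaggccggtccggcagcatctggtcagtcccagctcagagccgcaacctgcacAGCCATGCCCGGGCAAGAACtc
The best matches in FAS and FDXR follow, with the whole 20 bases in capitals. They lie at chr10:88991309-88991328 on the plus strand and chr17:74872996-74873015 on the minus strand.
FAS: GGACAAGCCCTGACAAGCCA
FDXR: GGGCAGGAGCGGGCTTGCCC
A match is a likeness of letters, and binding of p53 was not measured.

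Of the 9 members, none passed the threshold at the level of the gene. MDM2 and CDKN1A, the members most often used to read p53 activity, averaged 6.82 and 83.8 FPKM in control libraries and 6.63 and 77.7 in targeting libraries. GDF15 and TNFRSF10B measured more in every targeting library than in any control library, by 1.24 and 1.13 times on average, and missed the threshold. The fit used limma on log2(FPKM + 1) over the 10675 genes that reached 1 FPKM in 3 or more libraries, and a gene passed at a Benjamini-Hochberg adjusted p of 0.05. FAS was too low for that filter, so 8 members were tested and 0 passed, where 0.749% of all tested genes did. At an unadjusted p under 0.05 there were 3 of the 8 (GDF15, TNFRSF10B and RRM2B), beside 16.1% of all tested genes, and limma without the trend and robust limma also called 0. At an adjusted p of 0.1 the count was 1 (GDF15), beside 1.82% of all tested genes. Of the 8, 6 had a log2 change above 0, as did 61.2% of all tested genes. Their median log2 change was 0.12 and that of all tested genes was 0.03. In 3 of the 8 (GDF15, TNFRSF10B and SESN1) every targeting library lay above every control library, which held for 16.6% of all tested genes. The reverse order held for 0 of the 8 and for 7.18% of all tested genes.

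**Figure D1:**
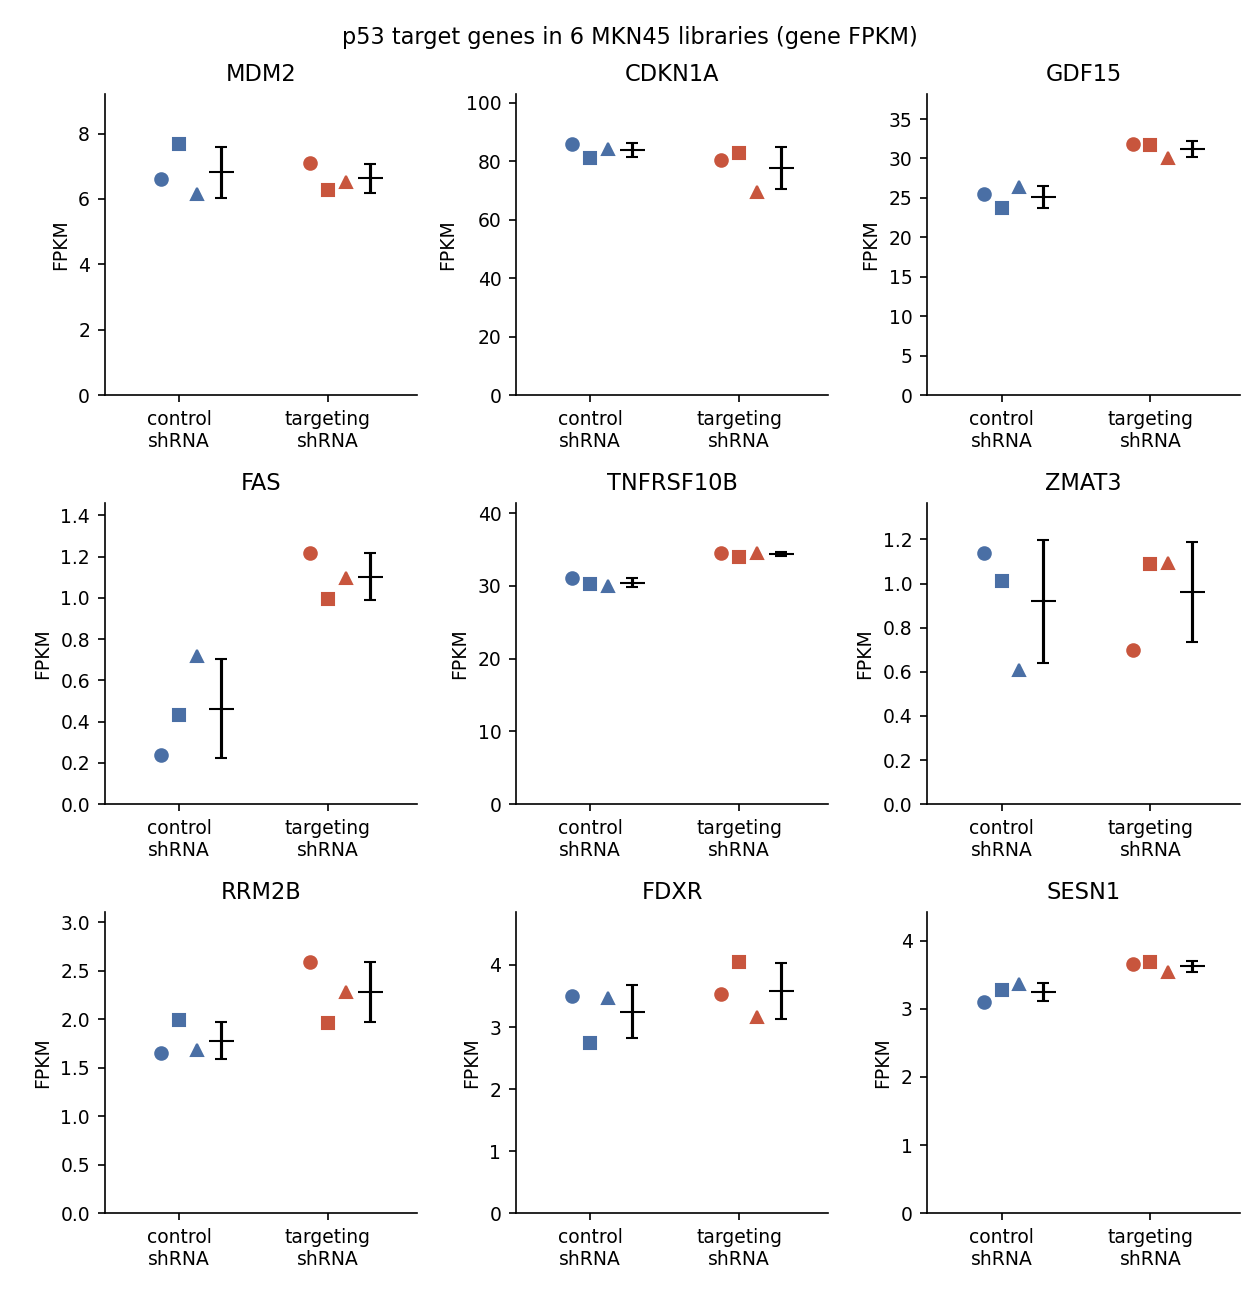
Gene FPKM (linear y axis from 0) of the 9 p53 targets in each of the 3 control and 3 targeting libraries. Circles, squares and triangles are replicates 1, 2 and 3, and the black bar is the mean with its SD. GDF15, FAS, TNFRSF10B and SESN1 show groups that do not overlap, while the groups of MDM2, CDKN1A, ZMAT3, RRM2B and FDXR overlap.

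MDM2, the ligase that marks p53 for destruction, lies on chromosome 12 at 69201956 to 69244466, plus strand (positions of genes are on GRCh37, as the authors' tables give them). It measured 6.61, 7.69 and 6.16 FPKM in control replicates 1 to 3 and 7.10, 6.26 and 6.51 in targeting replicates 1 to 3. The groups overlapped, and the highest and the lowest value were both from control libraries. The log2 change was -0.03 with an SE of 0.09 and a 95% interval of -0.24 to 0.17 (adjusted p = 0.879). CPM overlaps MDM2 on the opposite strand at 6.04 and 5.71 FPKM (means of control and targeting libraries). MDM4, a relative of MDM2 that blocks p53 without destroying it, ranged from 1.75 to 3.84 FPKM in control and from 1.66 to 4.11 in targeting libraries (adjusted p = 0.980). The interval of MDM4, from -0.68 to 0.73, was wider than that of MDM2.

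CDKN1A encodes p21, the inhibitor of cyclin-dependent kinases through which p53 halts the cell cycle, and was the most abundant member. It lies on chromosome 6 at 36644237 to 36655116, plus strand. Control libraries measured 86.0, 81.3 and 84.2 FPKM and targeting libraries 80.6, 82.9 and 69.5. Targeting replicate 3 was the lowest of all 6, and the other two targeting libraries lay within or just under the control range. The log2 change was -0.11 with an SE of 0.07 (interval -0.28 to 0.06, adjusted p = 0.496). Without targeting replicate 3 it was -0.036.

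Among the members that act outside the cell or at its surface, GDF15 had the largest log2 change of the 8 tested. It encodes a secreted cytokine of the TGF-beta superfamily that stressed cells release, and it is a target of ATF4 and CHOP (gene DDIT3) as well as of p53. The gene, on chromosome 19 at 18485541 to 18499986, plus strand, measured 25.4, 23.7 and 26.4 FPKM in control libraries and 31.9, 31.7 and 30.0 in targeting libraries. Each targeting library exceeded each control library, and the ratio of the means was 1.24. The log2 change was 0.30 with an SE of 0.05 (interval 0.17 to 0.43), and its adjusted p of 0.085 missed the threshold.

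TNFRSF10B encodes DR5, a death receptor for the ligand TRAIL, which CHOP also induces. On chromosome 8 at 22877646 to 22926692, minus strand, it measured 31.1, 30.2 and 29.9 FPKM in control libraries and 34.5, 34.0 and 34.5 in targeting libraries. The groups were each tight and did not overlap, with a ratio of 1.13. Its log2 change was 0.17 with an SE of 0.04 (interval 0.08 to 0.26, adjusted p = 0.122). RHOBTB2 overlaps it on the opposite strand at 7.31 and 7.38 FPKM (means of control and targeting libraries), and since strandedness is not stated, reads of such a pair cannot be told apart.

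FAS, the death receptor for FAS ligand, was close to the floor of the table. It lies on chromosome 10 at 90750339 to 90775542, plus strand, and measured 0.239, 0.431 and 0.717 FPKM in control libraries against 1.22, 0.993 and 1.10 in targeting libraries. All 3 targeting values lay above all 3 control values. In a fit with no filter its log2 change was 0.54 and did not pass (adjusted p = 0.148), and every gene of the table averages 0.5 FPKM or more in its higher group, and the FAS mean lies above that level in the targeting group only. ACTA2 overlaps FAS on the opposite strand at a similar level (0.646 and 0.774 FPKM).

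The remaining members act inside the cell and were low, at 0.606 to 4.05 FPKM. RRM2B, a ribonucleotide reductase subunit that supplies DNA building blocks for repair, on chromosome 8 at 103216730 to 103251346, minus strand, measured 1.66, 1.996 and 1.68 FPKM in control and 2.59, 1.96 and 2.28 in targeting libraries. Targeting replicate 2 lay below control replicate 2, so the groups overlapped by a narrow margin (log2 change 0.24, SE 0.09, interval 0.02 to 0.46, adjusted p = 0.284). SESN1, a sestrin that restrains mTORC1 and limits oxidative stress, on chromosome 6 at 109307640 to 109416022, minus strand, measured 3.10, 3.28 and 3.36 FPKM in control and 3.65, 3.69 and 3.53 in targeting libraries. Its groups did not overlap, yet the difference was small (log2 change 0.12, SE 0.05, adjusted p = 0.321). FDXR, the ferredoxin reductase of mitochondrial iron-sulfur and steroid chemistry, on chromosome 17 at 72858619 to 72869156, minus strand, ranged from 2.75 to 3.50 and from 3.16 to 4.05 FPKM (adjusted p = 0.642). ZMAT3, a zinc finger protein that binds RNA and affects its splicing and stability, on chromosome 3 at 178735011 to 178790067, minus strand, ranged from 0.606 to 1.14 and from 0.699 to 1.09 FPKM (adjusted p = 0.926). In both genes the groups overlapped.

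**Figure D2:**
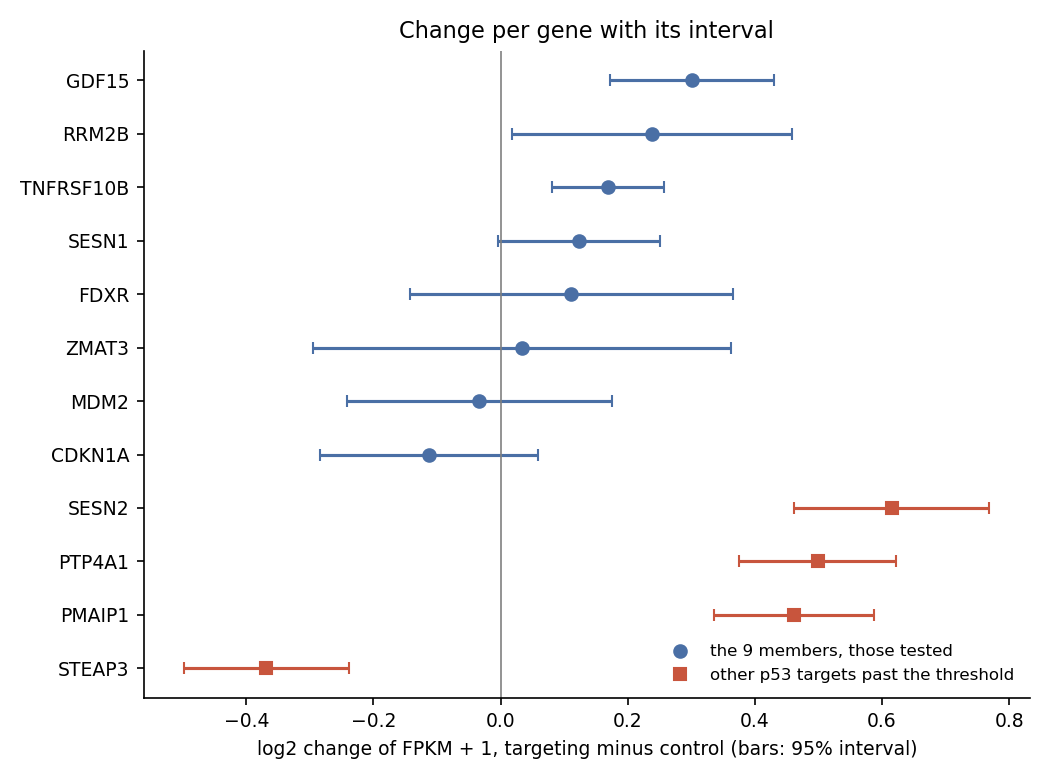
Log2 change of FPKM + 1 (x axis, targeting minus control) with its 95% interval for the 8 members tested (circles) and for 4 of the 5 other p53 targets that passed the threshold (squares). The intervals of MDM2 and CDKN1A include 0, while those of GDF15 (0.17 to 0.43), TNFRSF10B and RRM2B lie above it.

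Transcript values describe the same genes by start site and exon use, and 23 transcripts of the 9 members were listed. Of the 15 with enough signal to be tested, 0 passed limma's test with Benjamini-Hochberg adjustment, where 0.287% of 20890 transcripts did (lowest adjusted p among the 15, 0.307). At an unadjusted p under 0.05 there were 4, beside 7.4% of all, and limma without the trend and robust limma also called 0. In 5 of the 15 all targeting libraries lay above all control libraries, beside 9.12% of all tested transcripts, and the reverse held in 0, beside 6.07%. The 5 were CDKN1A-203, TNFRSF10B-001, GDF15-001, RRM2B-001 and FAS-005, and all but RRM2B-001 were the 4 above. FAS-005 reached 1 FPKM in every targeting library but, among control libraries, only in replicate 3. It thus met the filter mainly through the group where it is higher, so its place in both counts is no support for a difference. A transcript value depends on how reads shared between transcripts are divided. Transcript values do not add up to the gene value. The sum of listed transcripts, divided by the gene value, was 1.72 to 1.73 for GDF15 and 1.36 to 1.39 for CDKN1A. For FDXR it was 0.891 to 1.98, for FAS 0.573 to 1.45, for RRM2B 1.04 to 1.10 and for ZMAT3 0.862 to 0.997.

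The 3 listed transcripts of CDKN1A differ in their annotated start and each encodes the same 164 residues. CDKN1A-203, which starts upstream of the other two, measured 14.7, 14.8 and 12.4 FPKM in control libraries and 25.8, 24.6 and 43.7 in targeting libraries. The groups did not overlap and the ratio was 2.24 (log2 change 1.07, SE 0.24, adjusted p = 0.386). CDKN1A-201 measured 74.8, 69.0 and 43.1 FPKM in control and 56.6, 61.5 and 24.4 in targeting libraries (adjusted p = 0.839). For CDKN1A-001 the values were 27.4, 27.2 and 60.2 in control and 28.2, 27.2 and 28.6 in targeting libraries (adjusted p = 0.847). Control replicate 3 and targeting replicate 3 stood apart in this split, with low CDKN1A-201 beside a high CDKN1A-001 in the former and a high CDKN1A-203 in the latter.

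TNFRSF10B-001, which encodes the longer receptor of 440 residues, measured 20.6, 8.49 and 18.0 FPKM in control libraries and 30.9, 35.1 and 33.6 in targeting libraries. The groups did not overlap, with a ratio of 2.11 (log2 change 1.12, SE 0.32, adjusted p = 0.549), while the whole gene had a ratio of 1.13. TNFRSF10B-002, of 411 residues, measured 2.62 ± 1.25 and 2.70 ± 1.01 FPKM (SD, n = 3 libraries per group). The sum of both transcripts, divided by the gene value, was 0.743, 0.411 and 0.650 in control libraries and 1.01, 1.10 and 1.03 in targeting libraries. The transcript sums and the gene values thus gave unequal differences, and the reason was not tested.

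MDM2 has an upstream start and a second start region in its first intron, where p53 acts, and the MDM2 window printed above covers the latter. MDM2-001, from the upstream start and encoding 497 residues, measured 5.999 ± 0.585 and 6.04 ± 0.265 FPKM (adjusted p = 0.988). The 4 listed transcripts that start downstream of that first exon summed to 4.73, 4.45 and 1.52 FPKM in control libraries and 6.86, 1.07 and 1.48 in targeting libraries. The groups overlapped, with targeting replicate 1 the highest and targeting replicate 2 the lowest. MDM2-013, the transcript whose annotated start is that of the printed window, was low at 0.130, 0.260 and 0.0779 FPKM in control and 0.565, 0.399 and 0.999 in targeting libraries. It did not reach the filter, was not tested, and was named after its values were seen. The others that start downstream did not share this order. Control and targeting means were 1.85 and 1.03 FPKM for MDM2-033, 0.934 and 0.744 for MDM2-006, and 0.623 and 0.705 for MDM2-008.

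SESN1 has 3 listed transcripts with different annotated starts, and the window printed above belongs to the start of SESN1-003. SESN1-001, of 551 residues, measured 2.47 ± 0.185 and 2.48 ± 0.136 FPKM, and SESN1-002, of 492 residues, 2.34 ± 0.438 and 2.50 ± 0.217 (adjusted p = 0.993 and 0.925). SESN1-003, of 426 residues, was at 0.0257, 0 and 0.751 FPKM in control libraries and 0.877, 0.957 and 0.991 in targeting libraries, below the filter and not tested. Its groups did not overlap, control replicate 3 stood near the targeting values, and it was named after its values were seen. FAS-005, the only listed transcript of FAS, measured 0.150, 0.247 and 1.04 FPKM against 1.74, 1.33 and 1.42, with control replicate 3 again the highest of its group (adjusted p = 0.604). GDF15-001 measured 43.4 ± 2.24 and 54.0 ± 1.88 FPKM (adjusted p = 0.307) and RRM2B-001 1.90 ± 0.210 and 2.43 ± 0.268 (adjusted p = 0.758). FDXR-001 ranged from 0.526 to 3.98 FPKM and FDXR-006 from 0 to 3.41 over the 6 libraries, while ZMAT3-001 stayed at 0.522 to 1.14. The groups overlapped in all 3.

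**Figure D3:**
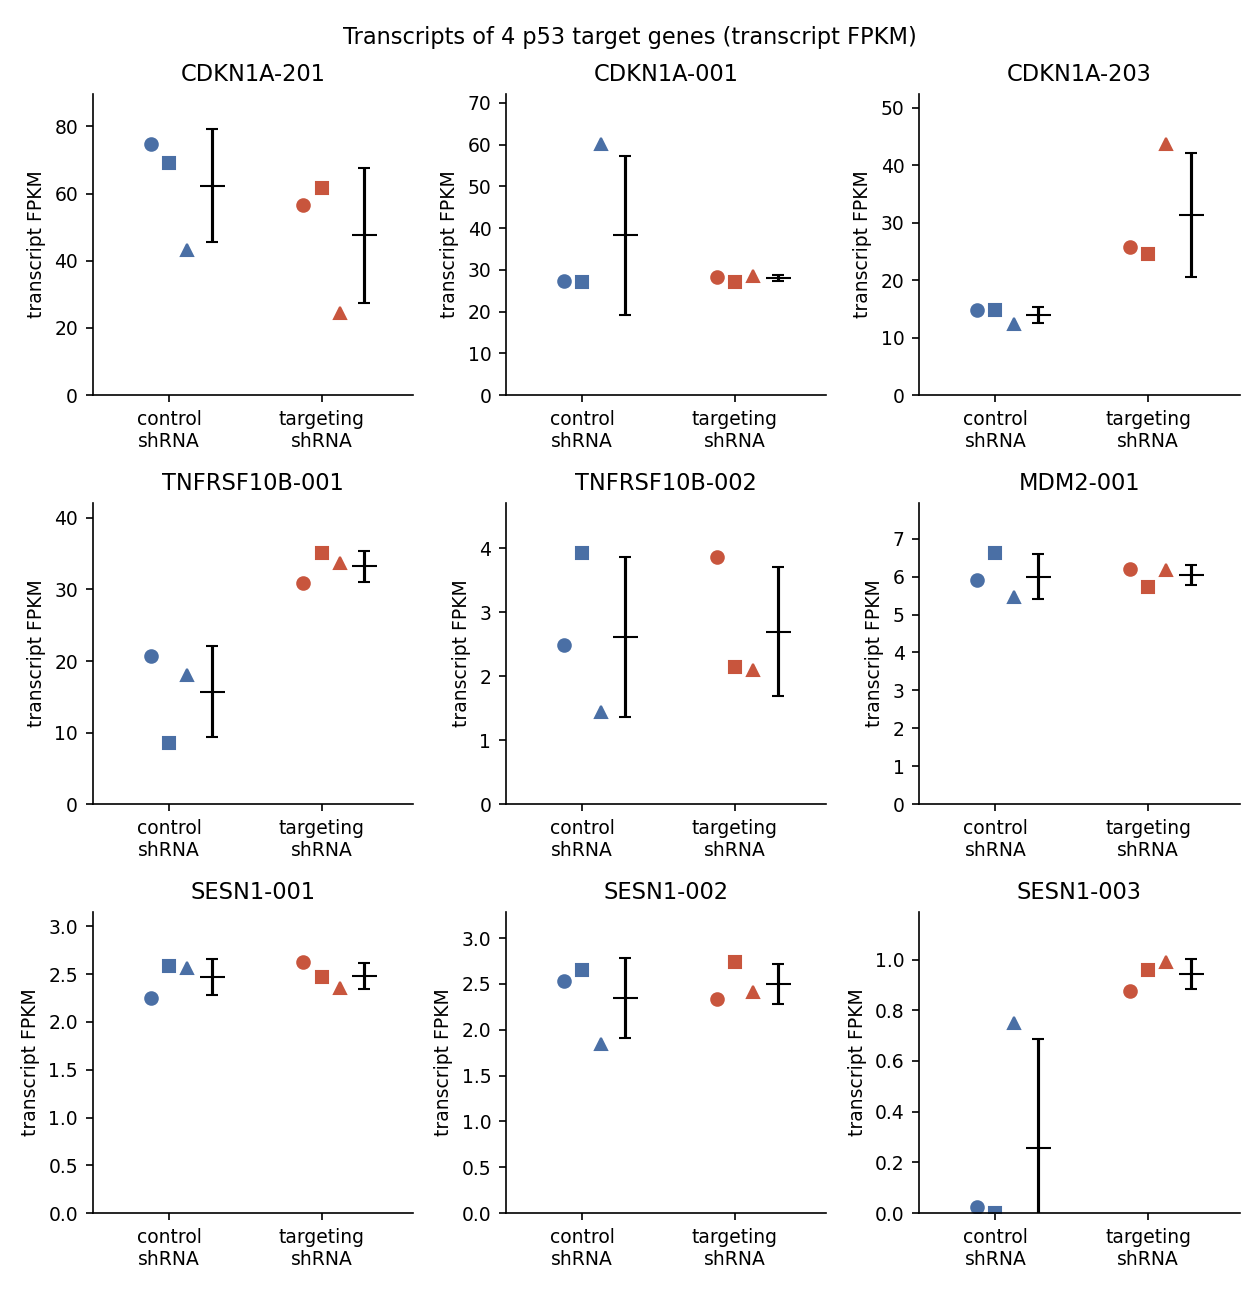
Transcript FPKM (linear y axis from 0) of CDKN1A, TNFRSF10B, MDM2 and SESN1 transcripts in each library, with circles, squares and triangles for replicates 1, 2 and 3 and black bars for the mean with its SD. CDKN1A-203, TNFRSF10B-001 and SESN1-003 are higher in all targeting libraries, and the groups overlap in the other panels. The lower SD bar of SESN1-003 in control libraries runs below 0 and is cut at the axis.

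Among 69 other p53 targets tested, 3 were higher in the targeting libraries (0.534% of all tested genes were), 2 were lower (0.215% were) and 64 did not pass. Their median log2 change was 0.03, beside 0.03 for all tested genes. This list and those below were drawn up with earlier results of these data known. Their counts beside all tested genes are therefore descriptive and are not a test of the lists. PMAIP1, which encodes the death promoter NOXA and responds to ATF4 as well as p53, rose from 4.999, 5.02 and 4.88 FPKM to 7.10, 7.60 and 6.95 (log2 change 0.46, SE 0.05, adjusted p = 0.022). SESN2, a sestrin induced by ATF4 and p53, rose from 3.60, 3.18 and 3.14 FPKM to 5.47, 5.84 and 5.46 (log2 change 0.62, SE 0.06, adjusted p = 0.018). PTP4A1, a phosphatase, rose from 54.5 ± 3.35 to 77.3 ± 0.158 FPKM (adjusted p = 0.018). STEAP3, a metal reductase that aids iron uptake, fell from 18.3 ± 0.557 to 14.0 ± 0.757 FPKM (adjusted p = 0.0495). In all 5 targets past the threshold the groups did not overlap, as their choice by the test on the same values all but fixes. With any 1 library left out, 0 to 2 p53 pathway genes other than the members passed, with 0 without control replicate 2 or any of the targeting replicates.

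By role, 2 of 16 cell death targets passed (PMAIP1 and STEAP3), beside 0.749% of all tested genes, and 5 of the 16 had an unadjusted p under 0.05, beside 16.1%. In the same list BAX, the pore former of mitochondria, and BBC3, the death promoter PUMA, measured 10.4 and 3.83 FPKM in control and 10.7 and 3.89 in targeting libraries (adjusted p = 0.815 and 0.920). These last 2 were named after their values were seen. TRIAP1, an inhibitor of apoptosis, measured 15.3 and 17.6 FPKM (adjusted p = 0.277). Of 7 feedback genes 0 passed and 0 had an unadjusted p under 0.05. TP53INP1, a stress-induced cofactor of p53, measured 1.33 and 1.15 FPKM, RCHY1, a ubiquitin ligase for p53, 1.24 and 1.52, and cyclin G1 (CCNG1) 19.2 and 17.6 (adjusted p = 0.333, 0.341 and 0.550). Among 8 genes of cell cycle arrest 0 passed and 1 had an unadjusted p under 0.05, with BTG2, an antiproliferative factor, at 7.01 and 7.92 FPKM, FBXO22 at 2.67 and 2.98 and E2F7 at 10.9 and 9.77 (adjusted p = 0.288, 0.408 and 0.443). Of 6 DNA repair targets 0 passed and 1 had an unadjusted p under 0.05, and XPC, which recognises damaged DNA, measured 9.24 and 10.5 FPKM, RPS27L 6.77 and 8.14 and REV3L, a translesion polymerase subunit, 1.49 and 1.599 (adjusted p = 0.233, 0.599 and 0.687). SESN2 was the only call among 8 metabolic and redox targets and the only 1 with an unadjusted p under 0.05, with NADSYN1 at 1.97 and 2.18 FPKM and SCO2, an assembly factor of cytochrome c oxidase, at 8.32 and 8.92 (adjusted p = 0.538 and 0.553). In the group of 24 other targets 2 passed, PTP4A1 among them, and 5 had an unadjusted p under 0.05. There NINJ1, which ruptures the membrane of dying cells, measured 8.94 and 6.47 FPKM (adjusted p = 0.172). Limma without the trend and robust limma also called 0 of the feedback, arrest and repair genes.

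Of 24 genes that regulate p53, 0 passed, at an unadjusted p under 0.05 there was 1, and the median log2 change was 0.02. That gene was SIRT1, a deacetylase of p53, at 13.2 and 14.8 FPKM (adjusted p = 0.213). ATM, the kinase that signals DNA breaks to p53, measured 3.41 and 3.83 FPKM, and PPP1R13L, an inhibitor of p53, 31.0 and 25.1 (adjusted p = 0.375 and 0.331). The p53 relative TP73 measured 1.29 and 1.51 FPKM (adjusted p = 0.754). Of 13 cell cycle genes that p53 lowers through p21, 0 passed. An unadjusted p under 0.05 was found in 5 of the 13, beside 16.1% of all tested genes, and in 6 all targeting libraries lay above all control libraries, beside 16.6%. Cyclin B2 (CCNB2) measured 17.4 and 19.4 FPKM, the mitotic kinase AURKA 24.7 and 26.6, and cyclin A2 (CCNA2) 20.6 and 22.6 (adjusted p = 0.215, 0.266 and 0.278). The median log2 change of the 13 was 0.08, beside 0.03 for all tested genes. Limma without the trend and robust limma called 0 in either list.

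**Figure D4:**
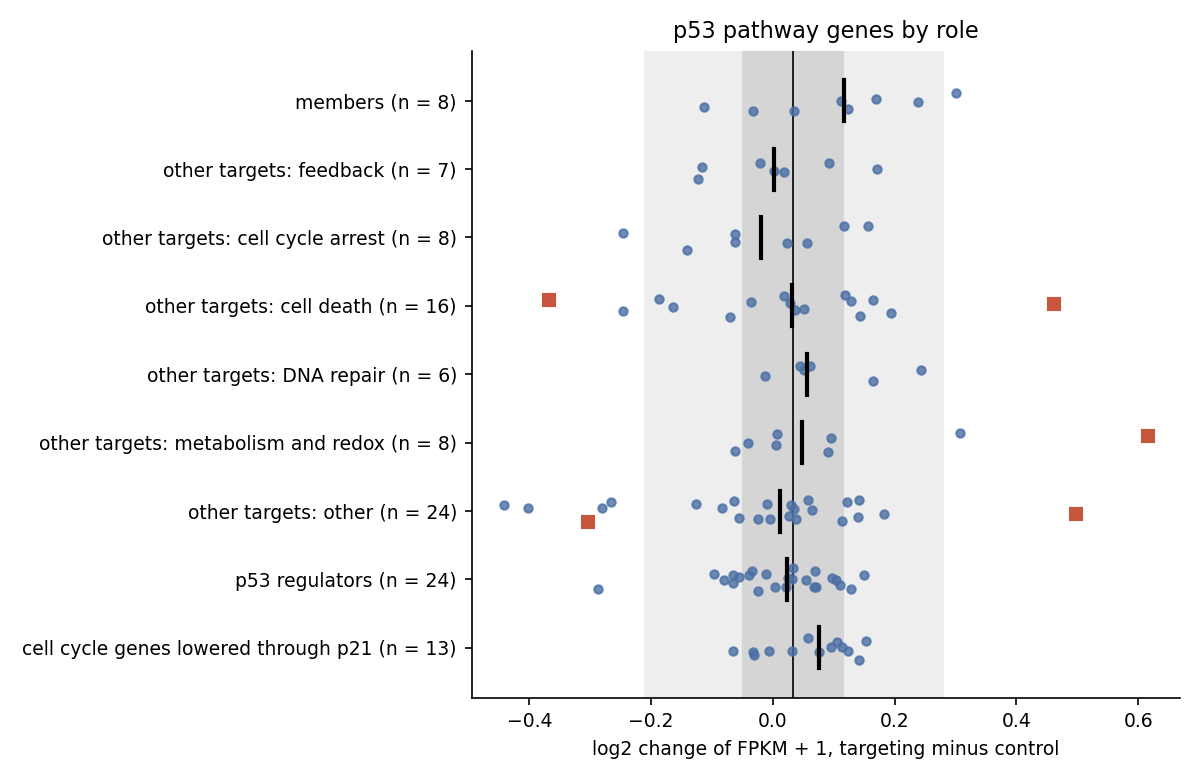
Log2 change of FPKM + 1 (x axis, targeting minus control) of p53 pathway genes by role, 1 point per tested gene, with squares for genes past the threshold and black bars for list medians. The thin line is the median of all tested genes (0.03), and the dark and light bands run from -0.05 to 0.11 (their quartiles) and from -0.21 to 0.28. SESN2 is the highest of the p53 targets.

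Of 5 stress factors and genes that share control with p53 targets, 1 passed, beside 0.749% of all tested genes. In limma 5 of the 5 had an unadjusted p under 0.05, beside 16.1%. DDIT3 (CHOP) rose from 5.70, 6.41 and 5.84 FPKM to 9.40, 9.09 and 10.3 (log2 change 0.60, SE 0.07, adjusted p = 0.021). ATF4 measured 111 ± 1.96 and 128 ± 1.48 FPKM (adjusted p = 0.061), and ATF3, another stress factor, 3.95 ± 0.359 and 2.18 ± 0.370 (adjusted p = 0.064). TRIB3 measured 25.5 ± 1.34 and 46.1 ± 15.7 FPKM and CHAC1 1.36 ± 0.529 and 2.83 ± 0.230 (limma adjusted p = 0.243 and 0.129). The part of these stress factors in the values of GDF15, TNFRSF10B, PMAIP1 and SESN2 was not tested.

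The sum of gene FPKM was 186226 to 192101 per library, no pair of libraries held identical values, and read numbers are not known, which leaves counting error without an estimate. The label of a gastric carcinoma line was checked against marker genes and was met only in part: mesenchymal markers summed to more than epithelial ones in each of the 6 libraries, and 4 defining epithelial markers had no value to check. Of 10 epithelial markers 6 were in the table, led by KRT18 at 60.9 and 57.0 FPKM, and CDH1, KRT19, CEACAM5 and CEACAM6 were not among the genes analysed here. Their summed level was 154 to 172 FPKM in control and 149 to 158 in targeting libraries. CLDN4, a claudin, measured 10.96, 10.03 and 10.6 FPKM in control libraries and 10.6 in targeting replicate 1, and 0.0586 and 0.175 in targeting replicates 2 and 3. Of 11 fibroblast and mesenchymal markers 6 were in the table, led by COL5A1 (260 and 221 FPKM) and VIM (203 and 187). These 2 made up most of the mesenchymal sum. The rest were lower: FN1 at 25.5 and 22.6 FPKM, LUM at 12.6 and 11.7, COL1A1 at 3.19 and 3.49, and DCN at 1.46 and 1.07. COL1A2, COL3A1, THY1, PDGFRB and SPARC were not among the genes analysed here. The mesenchymal sum was 497 to 517 FPKM in control and 441 to 459 in targeting libraries, and the groups did not overlap. Of the 6 markers 0 passed the threshold, beside 0.749% of all tested genes. In 2 (COL5A1 and FN1) every targeting library lay below every control library, beside 7.18% of all tested genes. COL1A1 had a log2 change above 0. Of 4 leukocyte markers 2 were listed, led by CD68 (14.0 and 10.8 FPKM), with a sum of 14.1 to 16.4 and 11.1 to 14.2 FPKM. Of 3 endothelial markers 0 were. The part of these differences in the values of the p53 targets was not tested, and in bulk RNA fewer cells of a type and less RNA per cell cannot be told apart.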

How the data were processed

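RNA of 6 MKN45 libraries was extracted with Trizol and made into libraries by Illumina protocols, per the labels' protocols. The authors deposited FPKM values per gene and per transcript, per the file headers. The submitters' processing notes name hg19 and GRCh37. Not given in the sources used here are the aligner, the tool that estimated FPKM, its annotation and whether libraries were stranded. Each of the 11658 genes averaged 0.5 FPKM or more in its higher group. Whole reads could not be recovered. In each library the best of many trial steps was taken as the common step. With it, 27.8% to 30.0% of low values of single-transcript genes lay within 0.1 of a whole multiple. Chance gives 20% for a step fixed in advance and more for the best of many, so these shares cannot be read as above chance.

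Groups and replicate numbers came from the titles. Values were fitted as log2(FPKM + 1) with limma 3.58.1 (limma-trend) in R 4.3.3 over all genes with at least 1 FPKM in at least 3 libraries, and likewise over transcripts, with two-sided p-values adjusted by the Benjamini-Hochberg method at 0.05. The log2(FPKM + 1) scale understates changes of low genes. Errors are SDs over 3 libraries or moderated SEs. The fit was tested on simulated data. Python 3.11.15 with pandas 2.3.3 handled the tables and matplotlib 3.10.9 the figures. Promoter windows are RefSeq's on GRCh38.p14, and protein lengths are coding lengths of the same transcript identifiers in GENCODE 29.

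The members and lists were chosen with earlier results of these data known. All members were named, with MDM4 and, in each list, the genes past the threshold and the 3 of smallest p; a few genes that these rules name are not reported here. Transcripts named were each member's most abundant, any past the threshold and any of at least 20% of the member's listed FPKM in a group. VIM, BAX, BBC3, TNFRSF10B-002, MDM2-013, SESN1-003 and the MDM2 transcripts by start were chosen after their values were seen. Alternatives were other pseudocounts, filters, scalings and limma settings, a replicate block, transcript sums, a threshold of 0.1 and leaving out each library.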

Additional observations from a re-analysis of the deposited data

How the results depend on the processing

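No alternative at the threshold of 0.05 called a member, gene or transcript, and at an adjusted p of 0.1 the count was 1 (GDF15). GDF15 kept its sign in 16 of 16 alternatives with an adjusted p of 0.079 to 0.254. Signs of small changes turned: MDM2 ranged from -0.094 to 0.045 with a library left out, above 0 without control replicate 2 (0.045) or targeting replicate 2 (0.0013). ZMAT3 was -0.022 under quantile normalization and ranged from -0.089 to 0.134 with a library left out, below 0 without control replicate 3, targeting replicate 2 (-0.015) or targeting replicate 3 (-0.016). CDKN1A went from -0.113 to -0.036 without targeting replicate 3. FDXR was -0.22 as a sum of listed transcripts. The value of TNFRSF10B went from 0.17 to 0.98 as that sum. The count over all genes (80) was 52 among genes averaging 5 FPKM or more and 10 with the replicate block, and leaving out each library in turn gave 23 to 42. That over all transcripts (60) was 39 and 15 with pseudocounts of 0.1 and 0.01, 18 among those averaging 5 FPKM or more, 0 with the replicate block, and 33 to 53 with a library left out. The 5 other p53 pathway calls became 0 with the block and 0 to 2 with a library left out. Over all 15 alternatives PMAIP1 kept its call in 8, PTP4A1 in 9 and STEAP3 in 4, and SESN2 in 8 of 14. DDIT3 kept its call in 8 of 15. Deviations of same-numbered libraries correlated at -0.013, 0.019 and 0.066 across genes, and those of other pairs at -0.061 to 0.041. Values this weak cannot tell whether the numbers pair the libraries. The cause was not tested for any of these moves.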

Other observations

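Gene profiles most like those of CDKN1A and MDM2 were sought among the 6159 genes averaging 5 FPKM or more, as the root mean square difference of centred log2(FPKM + 1) values over the 6 libraries. For CDKN1A the closest were ADM, which encodes the peptide hormone adrenomedullin, at 0.033, ITM2B at 0.035 and ALG2, a mannosyltransferase of glycan assembly, at 0.035. ADM measured 76.2, 74.5 and 77.2 FPKM in control libraries and 70.8, 71.8 and 60.4 in targeting libraries, with targeting replicate 3 the lowest, as for CDKN1A. For MDM2 the closest were FAM107B at 0.026, PRPS1, which makes a precursor of nucleotides, at 0.035 and PLK4, the kinase of centriole duplication, at 0.037. PLK4 measured 6.76, 7.50 and 5.79 FPKM in control and 7.01, 5.997 and 6.59 in targeting libraries. The likeness is a description of these libraries.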
